A study of Mus musculus with 24 samples.

Results

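The 36 genes described here are known targets or partners of p53 that were followed through a mouse series on the loss of Sox17 from brain endothelium. They were picked by name from 45468 genes in the count tables, with the values of Sox17-deleted and control cells at postnatal day 5 (P5) in view, so P5 values are given as a description, with no test. All 36 passed the filter on low counts in the fit over all genes. Cells were isolated from brains of Sox17iECKO mice, which are Sox17flox/flox and carry Cdh5(PAC)-Cre-ERT2, and of wt mice, which are Sox17flox/flox without the Cre transgene. Cdh5(PAC)-Cre-ERT2 is a tamoxifen-activated recombinase driven by the promoter of the endothelial cadherin gene. Both genotypes received tamoxifen, so loss of Sox17 and presence of an active Cre cannot be told apart in any comparison below. For embryos, taken at E15.5, the dams had received 2 injections of 1 mg, on days 11.5 and 13.5 after mating. Pups taken at P5 and P9 had received 100 µg on day 1. Adults had received 4 injections of 1.5 mg from 6 weeks of age and were taken 1 week later. Each of the 4 stages had 3 Sox17iECKO (below, KO) libraries and 3 wt libraries, 24 in all, described by the submitters as independent biological replicates.

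p53, encoded by Trp53, is a transcription factor that accumulates when DNA is damaged or cells are stressed. It binds DNA as a tetramer at pairs of a short consensus half-site and switches on genes that halt the cell cycle, repair DNA, restrain Akt signalling or start apoptosis, and it also switches on its own inhibitor Mdm2. Much of its control is on the protein, so the Trp53 transcript is a poor gauge of p53 activity. Sox17 is a transcription factor of the endothelium known for its part in arterial identity and in the formation of the blood-brain barrier.

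The sequences shown are promoters of 5 members, those with the largest P5 log2 differences among members whose promoter held a p53 half-site match. They belong to the feedback gene Ccng1, the arrest gene Cdkn1a, the polymerase gene Polk and the apoptosis genes Aen and Bax. Each is the RefSeq window of 300 bases, 250 before to 50 after the gene's start, on mouse build GRCm38.p6, printed 5′ to 3′ on the gene's strand, with matches to the p53 consensus half-site in capitals. Ccng1 lies at chr11:40755237-40755536 (minus strand), Cdkn1a at chr17:29090729-29091028 (plus), Polk at chr13:96519138-96519437 (minus), Aen at chr7:78895808-78896107 (plus) and Bax at chr7:45466849-45467148 (minus). The Polk window starts from a RefSeq transcript whose start is inside the gene as the count tables place it.
Ccng1: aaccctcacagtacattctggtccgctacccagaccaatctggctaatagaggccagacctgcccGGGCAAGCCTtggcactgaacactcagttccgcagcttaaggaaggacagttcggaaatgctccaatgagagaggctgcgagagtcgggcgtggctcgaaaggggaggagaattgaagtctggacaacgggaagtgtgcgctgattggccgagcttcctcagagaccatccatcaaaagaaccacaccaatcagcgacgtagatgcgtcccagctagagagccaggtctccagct
Cdkn1a: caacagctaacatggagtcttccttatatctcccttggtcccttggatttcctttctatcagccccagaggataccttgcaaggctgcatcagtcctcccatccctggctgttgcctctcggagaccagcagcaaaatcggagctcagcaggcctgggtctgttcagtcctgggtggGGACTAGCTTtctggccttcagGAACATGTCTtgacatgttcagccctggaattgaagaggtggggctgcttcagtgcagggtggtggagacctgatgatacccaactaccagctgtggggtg
Polk: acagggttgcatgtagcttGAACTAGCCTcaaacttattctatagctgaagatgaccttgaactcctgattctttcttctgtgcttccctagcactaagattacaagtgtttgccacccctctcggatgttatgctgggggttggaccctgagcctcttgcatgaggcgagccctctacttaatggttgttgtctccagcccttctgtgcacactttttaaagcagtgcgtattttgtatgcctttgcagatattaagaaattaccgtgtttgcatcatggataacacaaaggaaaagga
Aen: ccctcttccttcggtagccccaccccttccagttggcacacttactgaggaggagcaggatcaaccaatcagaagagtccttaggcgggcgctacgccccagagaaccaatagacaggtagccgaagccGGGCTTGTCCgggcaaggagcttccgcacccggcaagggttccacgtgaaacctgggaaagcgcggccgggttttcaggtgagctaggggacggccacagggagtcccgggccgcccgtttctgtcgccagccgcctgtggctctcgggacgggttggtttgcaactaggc
Bax: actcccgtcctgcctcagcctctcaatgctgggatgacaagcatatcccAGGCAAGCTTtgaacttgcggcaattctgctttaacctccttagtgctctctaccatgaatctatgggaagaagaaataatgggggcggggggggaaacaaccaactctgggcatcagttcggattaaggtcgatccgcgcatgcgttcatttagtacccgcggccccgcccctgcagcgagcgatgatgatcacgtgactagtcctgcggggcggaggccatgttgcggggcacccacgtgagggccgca
The half-site, a run of 10 bases that reads alike on both strands, was searched on both strands. In Cdkn1a, 2 matches began 73 and 51 bases before the start. The match began 185 bases before the start in Ccng1, 231 in Polk, 121 in Aen and 201 in Bax. Aen has a second RefSeq window, at chr7:78895677-78895976, in which the same run begins 10 bases after the start. Mdm2, Ei24, Sesn1 and Trp53 also held one, at 186, 10, 173 and 75 bases before the start of the RefSeq transcript, which for Sesn1, as for Polk, lies well inside the gene as the count tables place it. In all, 9 of the 27 members with an entry (33.3%) held a match, against 9.6% of the 27025 genes in the table. A match here is a run of letters, not a measured binding site, and the members were picked as p53 targets, so this share is a description.

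Libraries held 12301779 to 19830600 counts on genes. Levels are given as CPM (counts per 1000000 counts of the scaled library). A count of 0 allowed up to 3 counts, or 0.151 to 0.244 per 1000000 unscaled counts, for counting error only. Log expression correlated at 0.971 to 0.99 between libraries of a group. Sox17 stood at 8.34 to 10.6 CPM in KO and 78.3 to 108 CPM in wt at E15.5, at 15.1 to 19.1 CPM in KO and 227 to 306 CPM in wt at P5, at 18.9 to 27.2 CPM in KO and 311 to 354 CPM in wt at P9, and at 22.5 to 78.2 CPM in KO and 274 to 318 CPM in wt adults. All 12 endothelial marker genes were detected in every group. Stage goes together with the dissociation kit, one for E15.5 and P5 and another for P9 and adult, and with the tamoxifen schedule. In these bulk libraries, fewer cells of a type and less RNA per cell cannot be told apart.

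At P5, the stage that guided the choice of members, the median log2 fold change over the 36 genes was 0.77, beside -0.00 over all 17159 genes tested, and 29 members had every KO library above every wt library. Among all genes tested, 7.8% were separated in that direction and 7.23% in the other, and since P5 values guided the choice of members, no comparison is drawn from these shares. The libraries overlapped for Ddb2, Fas, Perp, Plk3, Tigar, Trp53 and Xpc. The widest gap was in Eda2r, a death receptor gene of the TNF receptor family (ENSMUSG00000034457, chrX:97333840-97377216), with 26.2, 10.3 and 14.1 CPM in KO against 0.692, 0.907 and 0.703 CPM in wt. Every KO library was above 10 CPM and every wt library below 1 CPM, a fitted log2 difference of 4.24. Phlda3, which blocks Akt at the membrane (ENSMUSG00000041801, chr1:135766119-135769136), had 59.4, 28.1 and 34.2 CPM in KO against 4.36, 5.02 and 4.53 CPM in wt, a log2 difference of 3.09. The stress cytokine gene Gdf15 had 5.91, 2.78 and 6.64 CPM in KO and 0.9, 0.242 and 0.958 CPM in wt, a log2 difference of 2.68 on low counts.

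All 7 members of the metabolic and transport group were separated at P5. Ephx1, an epoxide hydrolase of xenobiotic metabolism, had 117, 62.5 and 90.7 CPM in KO against 27, 30.1 and 25.7 CPM in wt. Dcxr, a sugar reductase, had 24.6, 10.5 and 17.3 CPM in KO against 3.88, 5.02 and 3.51 CPM in wt. Prrg4, which encodes a membrane protein with a Gla domain, had 7.57, 2.64 and 4.22 CPM in KO against 0.692, 0.665 and 0.958 CPM in wt. In each of these, KO library 1 was the highest and KO library 2 the lowest of the KO libraries. The long noncoding RNA Pvt1 had 4.05, 2.01 and 3.83 CPM in KO against 1.18, 0.726 and 0.958 CPM in wt. Ces2e, a carboxylesterase gene with near-identical neighbours whose reads may be shared, had 8.64, 5.27 and 6.59 CPM in KO against 1.94, 2.12 and 2.17 CPM in wt. Slc19a2, a thiamine transporter gene, and Ak1, adenylate kinase, differed by 1.21 and 0.64 on the log2 scale.

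The arrest and feedback genes showed smaller gaps at P5 on higher levels. Cdkn1a, which encodes the cyclin-dependent kinase inhibitor p21 (ENSMUSG00000023067, chr17:29090979-29100722), had 434, 282 and 398 CPM in KO and 170, 172 and 144 CPM in wt. Ccng1, cyclin G1, which acts in p53 feedback (ENSMUSG00000020326, chr11:40748552-40755311), had 108, 54.1 and 64 CPM in KO against 26.4, 37.7 and 27.5 CPM in wt. Mdm2, the ubiquitin ligase that degrades p53, had 101, 74.5 and 80.2 CPM in KO against 62, 54.9 and 61.8 CPM in wt. KO and wt libraries did not overlap in these 3 genes, and the log2 differences were 1.20, 1.30 and 0.52. Trp53 itself overlapped, with 154, 171 and 189 CPM in KO and 161, 160 and 143 CPM in wt.

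Of the 9 apoptosis genes, 8 were separated at P5, all but Perp. Bax, the pore-forming effector of mitochondrial apoptosis (ENSMUSG00000003873, chr7:45461695-45466898), had 82.9, 70.2 and 69.3 CPM in KO and 54.9, 34.4 and 57.4 CPM in wt. The log2 differences of the other separated genes ran from 0.34 for Pmaip1, the BH3-only protein Noxa, to 1.46 for Trp53inp1, a stress-induced partner of p53. In the repair group, Polk, a translesion DNA polymerase, Ercc5, an excision nuclease, and Rrm2b, a ribonucleotide reductase subunit, were separated at 0.81, 0.46 and 0.38, and the damage sensors Ddb2 and Xpc were not, at -0.19 and -0.01.

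The P5 KO libraries differed among themselves in the same order for most members. KO library 1 was the highest KO library for 30 of the 36 genes and library 2 the lowest for 26. The same count over all genes is not given, so this order is not read as a trait of the members. Summed over the 29 separated genes, the 3 KO libraries held 2290, 1690 and 1900 CPM, and the wt libraries 1190, 1170 and 1140 CPM. Fibroblast markers summed to 476 to 510 CPM in KO and 573 to 630 CPM in wt at P5, and 4 of 6 smooth muscle markers had KO below wt without overlap. Neural progenitor markers summed to 624 to 644 CPM in KO and 659 to 815 CPM in wt. The part of these markers in the members' values was not tested.

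**Figure D1:**
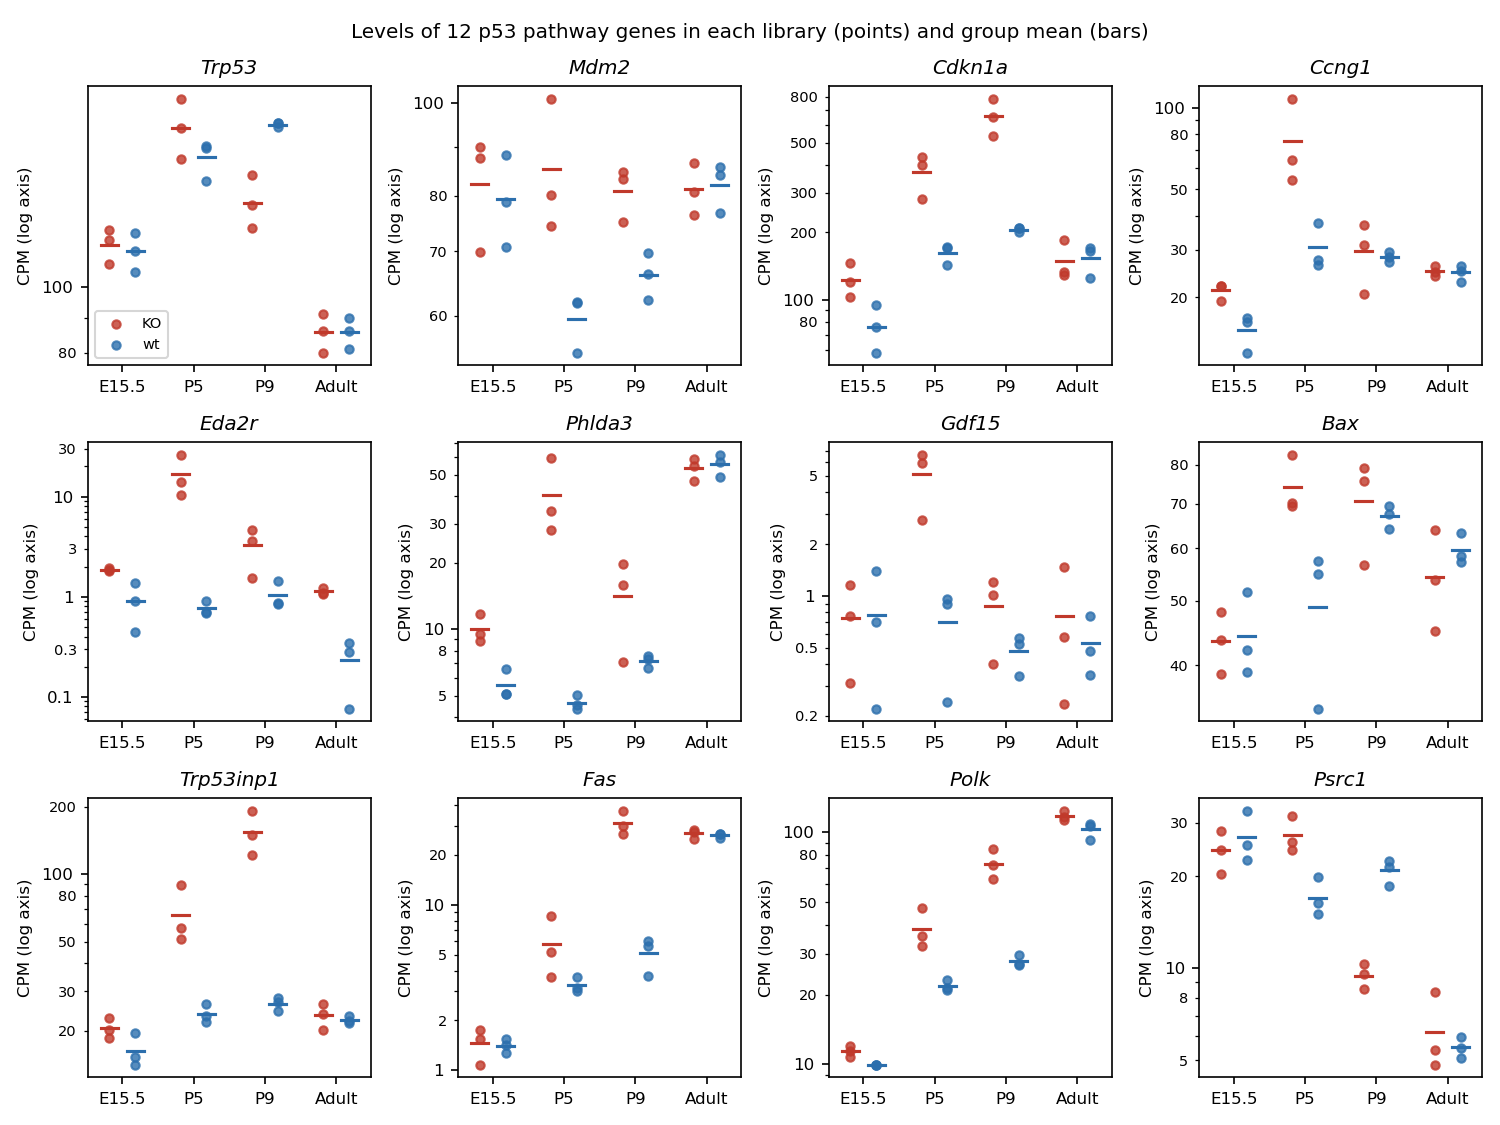
Levels of 12 members in CPM (log axis) at each stage, with KO libraries in red left of wt libraries in blue, points for libraries and bars for group means. Eda2r and Phlda3 stand apart most at P5, whereas Trp53inp1, Fas and Polk stand apart most at P9.

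The stage that guided the choice of members was P5, but earlier results of these data were known. The P9 counts may therefore not be independent of that choice. At P9, 19 of the 36 members passed the edgeR test at an adjusted p under 0.05, 15 of them higher in KO and 4 lower. Among all genes tested, 28% were called, 13.5% higher and 14.6% lower. Without overlap of the libraries, 16 members had KO above wt and 6 below, beside 19% and 21.7% of all genes tested. The median log2 fold change was 0.39 over the members and 0.02 over all genes tested. Rises were spread over the arrest genes (2 of 4), death receptors (2 of 3), apoptosis genes (5 of 9), Akt and stress genes (2 of 5), repair genes (2 of 5) and metabolic genes (2 of 7). None of the 3 genes of p53 and its feedback rose by that test, though Mdm2 passed under DESeq2.

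Trp53inp1 (ENSMUSG00000028211, chr4:11156431-11174379) had 149, 192 and 122 CPM in KO at P9 against 28, 24.6 and 26.8 CPM in wt. The groups lay far apart, and the log2 fold change was 2.54 ± 0.18 (SE, edgeR adjusted p = 4.5e-10, n = 3 each). Fas, a death receptor gene of extrinsic apoptosis (ENSMUSG00000024778, chr19:34290659-34327770), had 29.9, 37 and 26.6 CPM in KO against 3.73, 5.6 and 6.07 CPM in wt. Its log2 fold change was 2.57 ± 0.22 (edgeR adjusted p = 6.9e-09). The third death receptor gene, Tnfrsf10b, overlapped at P9, with 23.2, 24.5 and 13 CPM in KO and 17.9, 20.9 and 18.1 CPM in wt.

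Cdkn1a had 652, 786 and 538 CPM in KO against 200, 209 and 210 CPM in wt at P9, with no overlap, and rose by 1.67 ± 0.19 on the log2 scale (edgeR adjusted p = 3.9e-07). Plk3, a stress-responsive polo-like kinase gene, had 75.6, 89.7 and 92.8 CPM in KO against 57.9, 59 and 57.7 CPM in wt and rose by 0.56 ± 0.11 (edgeR adjusted p = 3.4e-04). Psrc1, which encodes a spindle protein and is known as a p53-regulated gene, fell. It had 9.59, 10.3 and 8.52 CPM in KO against 21.5, 22.5 and 18.6 CPM in wt, a log2 fold change of -1.13 ± 0.18 (edgeR adjusted p = 5.6e-05), whereas its P5 values were higher in KO, at 31.5, 26 and 24.4 CPM against 16.3, 15 and 19.9 CPM in wt. Plk2, the fourth gene of the group, had 657, 567 and 473 CPM in KO and 459, 439 and 353 CPM in wt, and did not pass (edgeR adjusted p = 0.068), while DESeq2 called it. Scaled to endothelial markers, Plk2 stood at 0.26 (edgeR adjusted p = 0.39).

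Polk (ENSMUSG00000021668, chr13:96480689-96542485) had 72.3, 84.9 and 63 CPM in KO at P9 against 29.6, 27.2 and 26.9 CPM in wt, and rose by 1.39 ± 0.12 (edgeR adjusted p = 8.1e-09). Sesn1, a sestrin that restrains mTORC1 under stress, had 229, 253 and 187 CPM in KO against 113, 122 and 114 CPM in wt, and rose by 0.94 ± 0.10 (edgeR adjusted p = 2.9e-07). Neither gene's groups overlapped. Ces2e fell, with 1.35, 0.79 and 1.32 CPM in KO against 4.51, 4.7 and 4.86 CPM in wt (log2 -1.92 ± 0.32, edgeR adjusted p = 7.2e-05), against its P5 direction.

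Among the remaining apoptosis genes, Bbc3, the BH3-only protein Puma, rose by 0.79 (edgeR adjusted p = 4.4e-04), with 34, 31.3 and 25.7 CPM in KO and 17.8, 17 and 17.7 CPM in wt. Zmat3, an RNA-binding p53 target, rose by 0.70 (edgeR adjusted p = 7.3e-04), with 39, 36 and 40.2 CPM in KO and 24.5, 24.2 and 22.1 CPM in wt. Apaf1, the scaffold of the apoptosome, rose by 0.45 (edgeR adjusted p = 0.002). Pmaip1 rose by 0.68 (edgeR adjusted p = 0.035), a call that rests on KO library 2: the KO values were 24.8, 42.1 and 16.2 CPM and the wt values 17.9, 17.6 and 16.4 CPM, and without that library the log2 fold change was 0.23 (adjusted p = 0.43). It was also lost without wt library 1, 2 or 3, at adjusted p = 0.073, 0.078 and 0.099. Bax had 75.6, 79.3 and 56.5 CPM in KO and 69.3, 67.6 and 64 CPM in wt, overlapping, with a log2 fold change of 0.07 ± 0.16 (edgeR adjusted p = 0.78). Aen, an exonuclease gene, Ei24 and Perp, known p53-induced genes of cell death, did not pass, at -0.03, -0.11 and 0.29.

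Eda2r and Phlda3, the members with the widest P5 gap, also rose at P9. Eda2r had 3.62, 4.68 and 1.55 CPM in KO against 1.44, 0.849 and 0.857 CPM in wt, a log2 fold change of 1.53 ± 0.39 (edgeR adjusted p = 0.0045), and the lowest KO library was only just above the highest wt library. Phlda3 had 15.9, 19.7 and 7.08 CPM in KO against 6.67, 7.59 and 7.36 CPM in wt, so that KO library 3 fell within the wt range. Its log2 fold change was 0.96 ± 0.27 (edgeR adjusted p = 0.01), and 0.63 (adjusted p = 0.093) without KO library 2. Gdf15 had 1.01, 1.21 and 0.403 CPM in KO and 0.523, 0.34 and 0.571 CPM in wt, and did not pass (log2 0.73 ± 0.58, edgeR adjusted p = 0.38). Ccng1 had 31.2, 37 and 20.6 CPM in KO and 28.2, 26.9 and 29.4 CPM in wt (log2 0.07 ± 0.21, edgeR adjusted p = 0.84).

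Trp53 fell at P9, with 132, 122 and 146 CPM in KO against 174, 174 and 172 CPM in wt (log2 -0.38 ± 0.09, edgeR adjusted p = 0.0029). Mdm2 had 84.7, 83.2 and 75.1 CPM in KO against 66.3, 69.7 and 62.3 CPM in wt. Its groups did not overlap, but it missed the threshold (log2 0.29 ± 0.12, edgeR adjusted p = 0.061), while DESeq2 called it (0.35, adjusted p = 0.019). Scaled to endothelial markers, Mdm2 stood at 0.12 (edgeR adjusted p = 0.68). Slc19a2 rose by 0.70 (edgeR adjusted p = 0.0044), with 10.3, 12.3 and 11.2 CPM in KO and 6.67, 6.11 and 8 CPM in wt.

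The 3 other calls at P9 were borderline. Ephx1, with 41.4, 42.8 and 32.7 CPM in KO and 26.8, 24.2 and 28 CPM in wt, rose by 0.56 (edgeR adjusted p = 0.031), but lost its call without wt library 1, 2 or 3 (adjusted p = 0.071, 0.11 and 0.052) and without KO library 1 or 2 (0.089 and 0.092). Ercc5 rose by 0.39 (edgeR adjusted p = 0.012) and lost its call without wt library 1 (adjusted p = 0.062) or KO library 2 (log2 0.26, adjusted p = 0.097). Tigar, a gene that diverts glucose from glycolysis, fell by 0.40 (edgeR adjusted p = 0.038) and lost its call without wt library 2 or 3 (adjusted p = 0.16 and 0.055) or KO library 2 or 3 (0.14 and 0.078). Of the other members, Sesn2, Ddb2, Rrm2b, Xpc, Dcxr, Prrg4, Pvt1 and Ak1 did not pass the edgeR test, with log2 fold changes between -0.31 and 0.46. Sesn2 and Ddb2 just missed it (edgeR adjusted p = 0.062 and 0.098) and were called by DESeq2. Scaled to endothelial markers, neither passed (edgeR adjusted p = 0.31 and 0.51). Among the KO libraries, library 2 was the highest for 23 members and library 3 the lowest for 27, again without such a count over all genes.

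**Figure D2:**
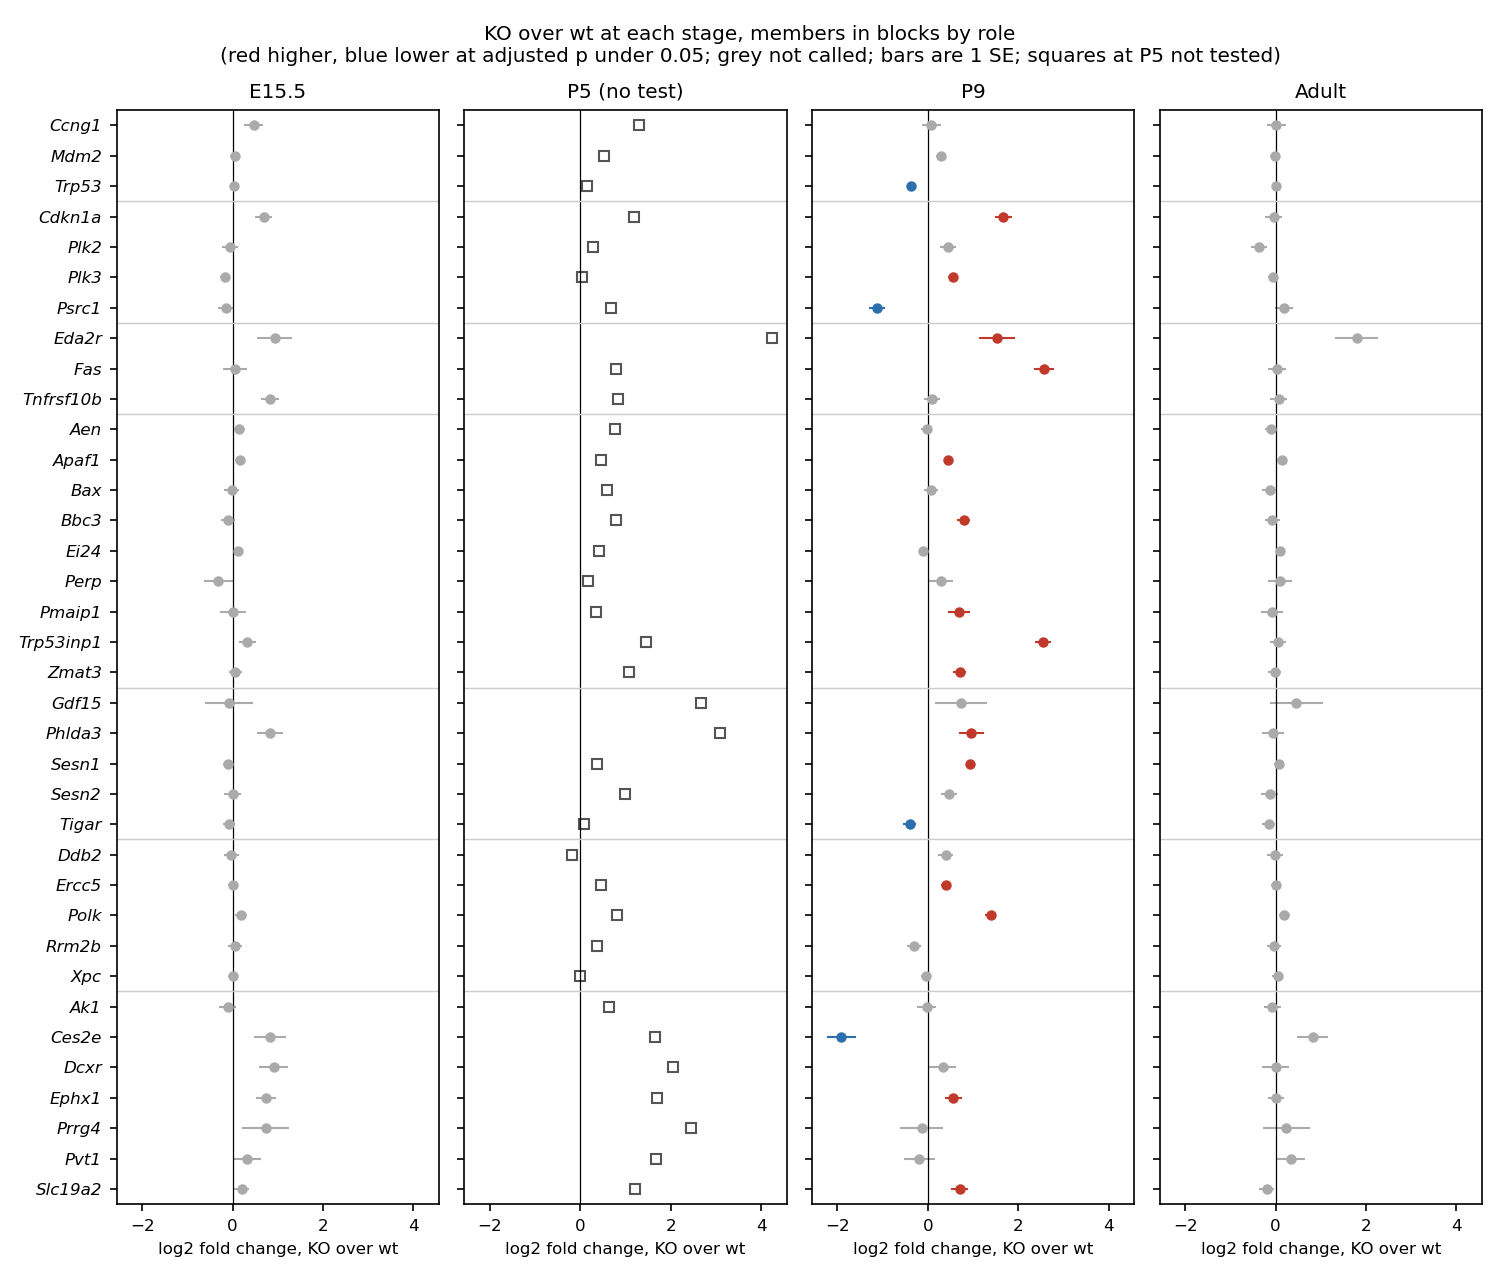
Log2 fold change of KO over wt for each of the 36 members, grouped by role, in 4 panels by stage, with bars of 1 SE from edgeR. Red and blue points passed the test as higher and lower in KO and grey points did not; open squares at P5 were not tested. Calls appear at P9 and at no other tested stage.

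Markers of other cell types moved with genotype at P9. Summed over 9 pericyte markers, KO libraries held 766 to 1860 CPM and wt libraries 2910 to 3970 CPM, with 6 of 9 genes lower. Smooth muscle markers summed to 77.7 to 168 CPM in KO and 235 to 322 CPM in wt, with 5 of 6 tested genes lower. Fibroblast markers summed to 197 to 284 CPM in KO and 333 to 440 CPM in wt, with 5 of 6 lower and 1 higher. Astrocyte markers summed to 852 to 1270 CPM in KO and 541 to 620 CPM in wt, with 6 of 8 higher, and the 12 endothelial markers to 21600 to 26600 CPM in KO and 19200 to 19700 CPM in wt, with 5 higher and 2 lower. Summed markers of neural progenitors (443 to 517 CPM in KO, 735 to 772 CPM in wt), of microglia (42.2 to 45.8 CPM in KO, 55.7 to 64.5 CPM in wt) and of red cells and platelets (1260 to 1500 CPM in KO, 1560 to 1770 CPM in wt) were also apart. Of these, 1 of 7 progenitor genes was lower and, of 9 microglial genes, 1 was higher and 1 lower. No marker of these 8 lists was at 0 in every library of a P9 group. Their part in the members' values was not tested. When libraries were scaled to the endothelial markers, a setting chosen after seeing the data, the median over all genes at P9 moved to -0.14, and 8 members were higher and 5 lower, beside 6.03% and 19.2% of all genes. Trp53inp1, Fas, Polk, Sesn1, Cdkn1a, Eda2r, Bbc3 and Zmat3 stayed higher. Ces2e, Psrc1, Tigar and Trp53 stayed lower, and Rrm2b was also called lower (-0.49, adjusted p = 0.03). Apaf1, Ephx1, Ercc5, Phlda3, Plk3, Pmaip1 and Slc19a2 kept a positive sign without passing, at adjusted p between 0.056 and 0.36.

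The members with the widest gap were not the same at P5 and P9. At P5 the gap was above 2 on the log2 scale for Eda2r, Phlda3, Gdf15, Prrg4 and Dcxr, and at P9 for Trp53inp1 and Fas. Gdf15, Prrg4 and Dcxr stood at 0.73, -0.14 and 0.33 at P9. No test was made of this difference, because the P5 values guided the choice of members.

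**Figure D3:**
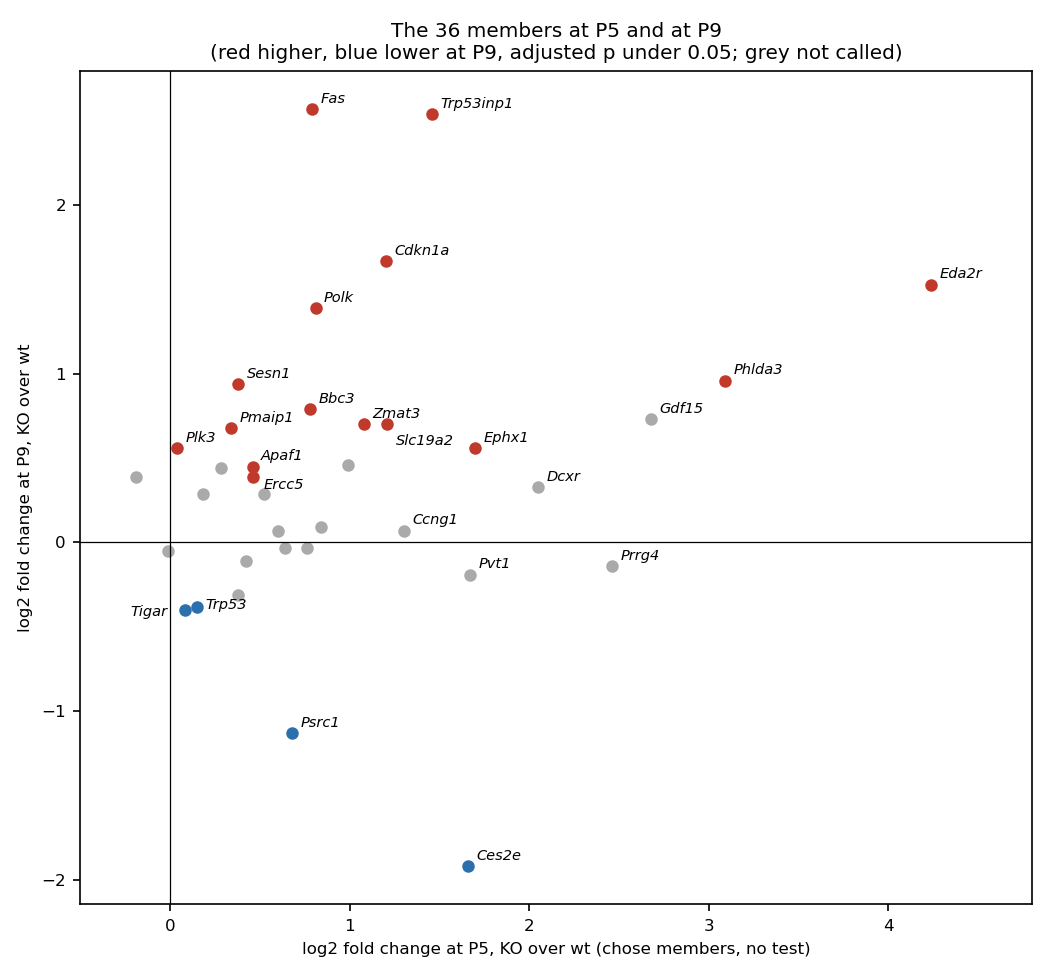
Log2 fold change of KO over wt at P5 (x axis) and at P9 (y axis) for the 36 members, 1 point a gene. Eda2r and Phlda3 lie far right at 4.24 and 3.09, Trp53inp1 and Fas at the top at 2.54 and 2.57, and Ces2e and Psrc1 lie right of 0 and below it.

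At E15.5, no member passed the edgeR test over all genes, in which 0.548% of genes were called, 0.42% higher and 0.128% lower. Without adjustment, 8 members had p under 0.05, all higher in KO: Tnfrsf10b, Cdkn1a, Ephx1, Phlda3, Dcxr, Eda2r, Ccng1 and Ces2e, while 4.99% of all genes had such a p. Both DESeq2 and limma-trend called 1 member, Tnfrsf10b, and edgeR with no filter on low counts called 4: Cdkn1a, Ephx1, Phlda3 and Tnfrsf10b. Tnfrsf10b, the mouse TRAIL receptor, had 8.2, 7.76 and 10.4 CPM in KO against 4.69, 4.53 and 5.43 CPM in wt, without overlap. Its log2 difference was 0.83 ± 0.20 (edgeR adjusted p = 0.062), with DESeq2 adjusted p = 0.013 and limma-trend adjusted p = 0.038. Cdkn1a had 146, 103 and 120 CPM in KO and 58.4, 75.8 and 94.7 CPM in wt, a log2 difference of 0.69 ± 0.19 (edgeR adjusted p = 0.15, and 0.035 when scaled to endothelial markers).

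Phlda3 at E15.5 had 11.7, 8.83 and 9.5 CPM in KO against 6.6, 5.08 and 5.07 CPM in wt, without overlap (log2 0.83 ± 0.28, edgeR adjusted p = 0.42). Eda2r had 1.94, 1.83 and 1.81 CPM in KO and 0.44, 0.907 and 1.36 CPM in wt, also without overlap (log2 0.93 ± 0.39, edgeR adjusted p = 0.81). Ccng1 had 22.1, 19.4 and 22.1 CPM in KO and 12.5, 16.8 and 16.2 CPM in wt (log2 0.47 ± 0.21, edgeR adjusted p = 0.87). Ephx1 had 8.7, 8.21 and 6.09 CPM in KO and 4.25, 6.41 and 2.95 CPM in wt, overlapping in 1 library. It passed when wt library 2 was left out (log2 1.08, adjusted p = 0.037), against 0.29 with all libraries. Ces2e had 8 counts in all in KO and 1 in wt, too few for a fold change. Across the 36 genes, 9 had KO above wt without overlap and 1 below, shares to be read against 4.99% and 3.36% of all genes tested. Mdm2, Trp53, Gdf15 and Bax had log2 differences of 0.06, 0.03, -0.08 and -0.02, none past the threshold, and the sign of each turned when 1 library was left out. Red cell and platelet markers summed to 539 to 840 CPM in KO and 2590 to 3490 CPM in wt at this stage, and their part was not tested.

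In adults, taken 1 week after the injections, no member passed the edgeR test, and 0.0874% of all genes were called, 0.0291% higher and 0.0583% lower. Without adjustment 2 members had p under 0.05, Eda2r and Ces2e, a share near the 3.52% of all genes, against 3 under DESeq2 and 3 under limma-trend, neither of which called a member. Eda2r had 1.21, 1.07 and 1.1 CPM in KO and 0.076, 0.342 and 0.278 CPM in wt, from 51 counts in KO and 10 in wt. The groups did not overlap, and the log2 difference of 1.79 ± 0.48 missed the threshold (edgeR adjusted p = 0.42). With no filter on low counts the same difference passed (1.78, adjusted p = 0.0059). Cdkn1a had 133, 185 and 130 CPM in KO and 126, 165 and 171 CPM in wt, and Phlda3 46.7, 55.1 and 59.1 CPM in KO and 49.1, 61.7 and 56.9 CPM in wt, both overlapping. Trp53inp1 and Fas overlapped too, Trp53inp1 at 20.1, 23.8 and 26.3 CPM in KO and 21.7, 22.1 and 23.3 CPM in wt, and Fas at 25, 27.7 and 28.4 CPM in KO and 25.4, 26.8 and 26.8 CPM in wt. Over the 36 genes, Eda2r and Polk had KO above wt without overlap and Plk2 had KO below, beside 5.09% and 5.79% of all genes tested, and the median log2 difference was 0.00. Sox17 transcript stood at 57.3, 22.5 and 78.2 CPM in the 3 adult KO libraries, of which the second lies within the P9 KO range. Red cell and platelet markers summed to 920 to 1060 CPM in KO and 1290 to 1490 CPM in wt adults, and their part was not tested.

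The effect of genotype differed between E15.5, P9 and adult for 12 members by the edgeR test of the interaction, against 14.4% of all genes tested. These were Trp53inp1, Fas, Polk, Sesn1, Ces2e, Cdkn1a, Plk3, Psrc1, Bbc3, Zmat3, Slc19a2 and Trp53. The log2 difference between KO and wt was larger at P9 than at E15.5 by 2.21 for Trp53inp1, 2.52 for Fas, 1.20 for Polk and 0.99 for Cdkn1a, and larger at P9 than in adults by 2.48, 2.53, 1.20 and 1.72. Eda2r did not pass this test (edgeR adjusted p = 0.54), nor did Phlda3 (0.097). Averaged over the 3 stages, 10 members passed, 9 higher and 1 lower, against 9.4% of all genes, 4.9% higher and 4.5% lower. Scaled to endothelial markers, 6 passed, without Apaf1, Ephx1, Phlda3 and Psrc1. All 6 were higher, and with that scaling 2.56% of all genes were higher and 3.66% lower. Eda2r was 1.42 ± 0.24 higher in KO on that average (edgeR adjusted p = 4.6e-04), with every KO library above every wt library at E15.5, P9 and adult. Trp53inp1 averaged 0.98 (adjusted p = 1.2e-06), Cdkn1a 0.77 (3.9e-05), Fas 0.89 (1.7e-04), Polk 0.59 (6.2e-06), Sesn1 0.30 (0.002), Apaf1 0.25 (0.0089), Phlda3 0.58 (0.017), Ephx1 0.44 (0.018) and Psrc1 -0.37 (0.032), all by edgeR. The P9 contrast enters each of these averages. Several of these calls were lost when 1 of the 18 libraries was left out. The interaction call of Zmat3 was lost without P9 wt library 1, 2 or 3, P9 KO library 1 or 3, or adult wt library 2, at adjusted p between 0.052 and 0.087. That of Slc19a2 was lost in 9 of 18 fits (adjusted p between 0.054 and 0.12), without E15.5 KO library 2, P9 wt library 1 or 2, P9 KO library 2 or 3, or any adult library other than wt 3 and KO 3. That of Trp53 was lost in 13 of 18 (0.054 to 0.11), all but those without E15.5 wt library 3, E15.5 KO library 2, P9 KO library 3, adult wt library 1 or adult KO library 2. The averaged call of Psrc1 was lost in 9 of 18 (0.05 to 0.076), without E15.5 wt library 2 or KO library 3, P9 wt library 1 or 2 or KO library 3, or library 2 or 3 of either adult group. The interaction call of Phlda3 was gained without P9 KO library 3 (adjusted p = 0.0045).

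**Figure D4:**
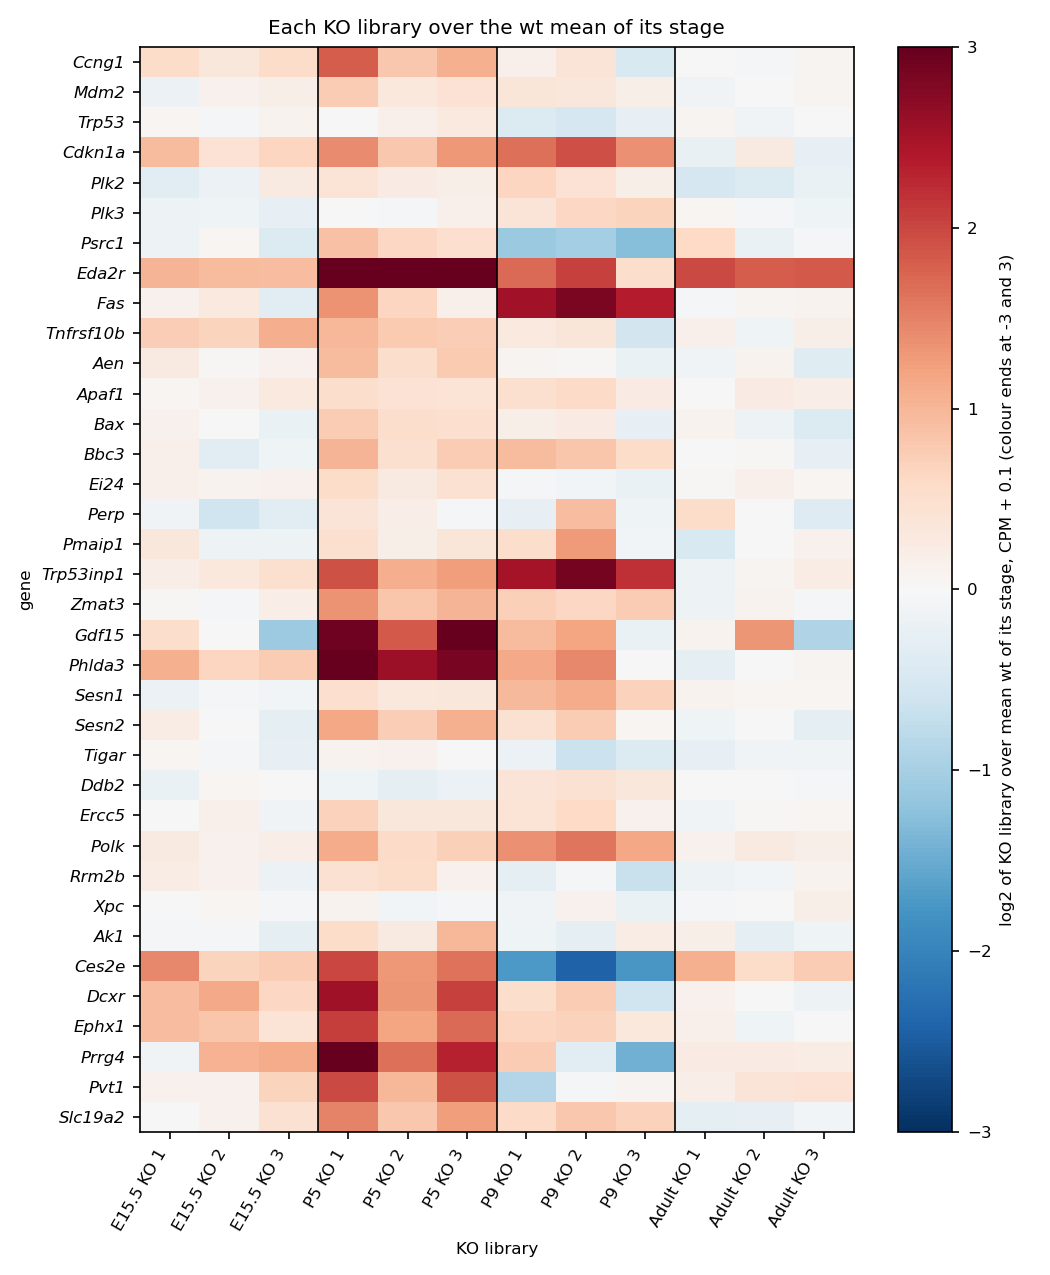
Each of the 12 KO libraries against the mean of the 3 wt libraries of its stage, as a log2 ratio of CPM, for the 36 members (rows, by role), with stages from E15.5 to adult. Red is higher and blue lower than wt: the P5 columns are red for most rows, most of all library 1, and the adult columns are near 0.

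Per length, by the deposited TPM values, Cdkn1a, Plk2 and Bax led the members from E15.5 to P9. At P9, Cdkn1a averaged 905 ± 107 TPM in KO and 299 ± 13.7 TPM in wt (SD, n = 3 each, as in this paragraph). Plk2 averaged 619 ± 82 TPM in KO and 478 ± 55 TPM in wt, and Bax 248 ± 27.4 TPM in KO and 248 ± 4.92 TPM in wt. In P9 KO cells the order of these 3 was set by gaps wider than their spread, whereas in adults Ephx1, at 249 ± 23.2 TPM in KO and 240 ± 7.61 TPM in wt, lay within the spread of Cdkn1a, at 240 ± 50.5 TPM in KO and 240 ± 33.9 TPM in wt. At P5, Pvt1 was the lowest member in KO, at 1.5 ± 0.528 TPM in KO and 0.444 ± 0.124 TPM in wt, while in wt Eda2r, at 9.15 ± 4.73 TPM in KO and 0.419 ± 0.045 TPM in wt, lay within the spread of Pvt1.

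In wt cells, 24 members differed between P9 and E15.5 by edgeR, 18 higher and 6 lower at P9, against 69.5% of all genes, 38.1% higher and 31.4% lower. The direction of many of these turns on the scaling, since endothelial markers summed to 19200 to 19700 CPM at P9 and 4960 to 5960 CPM at E15.5 in wt. Scaled to those markers, 4 members were higher at P9 and 26 lower, beside 4.06% and 80.6% of all genes. Ces2e, Ephx1, Pmaip1 and Perp stayed higher, Ephx1 at 0.87, Pmaip1 at 1.09 against 2.69 as first scaled, and Perp at 0.75 against 2.32. Polk, Cdkn1a, Sesn1 and Trp53 turned from 1.47, 1.43, 0.77 and 0.62 to -0.18, -0.21, -0.89 and -1.04, and the median over all genes moved to -1.48. Between wt adults and wt P9, 23 members passed, 12 higher and 11 lower in adults, against 61.1% of all genes, 30.9% higher and 30.3% lower. Scaled to endothelial markers, 18 were higher and 7 lower, beside 49.7% and 12.7% of all genes. Phlda3 was 2.93 higher in adults, Ak1 2.35, Ephx1 2.36, Fas 2.33 and Polk 1.88, while Psrc1 was 1.90 lower, Apaf1 1.35 lower and Trp53 1.01 lower, and all 8 kept their direction and call when scaled to endothelial markers. Oligodendrocyte markers summed to 18100 to 22000 CPM in wt adults and 1010 to 1810 CPM at P9 in wt, and their part was not tested.

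Other genes of the pathway were read from 3 lists chosen with earlier results of these data known. Of 43 further p53 targets in the tables, 7 were higher and 5 lower in KO at P9, shares near the 13.5% and 14.6% of all genes. Btg2, an antiproliferative p53 target, had 701, 875 and 846 CPM in KO and 222, 186 and 180 CPM in wt (log2 2.04 ± 0.12, edgeR adjusted p = 1.3e-11). Ckap2, Gtse1 and Pidd1 were lower, at -1.38, -1.35 and -0.83. At E15.5, Tap1, a peptide transporter, rose (1.11, edgeR adjusted p = 0.029), and in adults none of the 43 passed by edgeR, DESeq2 or limma-trend, with 1 at an unadjusted p under 0.05 by each. Scaled to endothelial markers, 1 of the 43 was higher and 6 lower at P9, beside 6.03% and 19.2% of all genes. Of 29 regulators of p53 and kinases of the damage response, 6 were higher and 9 lower at P9, beside the same 13.5% and 14.6%. Hipk1, a kinase that phosphorylates p53, had 472, 428 and 500 CPM in KO against 171, 167 and 174 CPM in wt (log2 1.45, edgeR adjusted p = 4.5e-10), and Ppp1r13l, the inhibitory partner iASPP, was 1.73 higher. Brca1 and the checkpoint kinase Chek1 were each 1.66 lower. None of the 29 passed at E15.5 or in adults by any of these tools, with 1 at an unadjusted p under 0.05 at E15.5 and 0 in adults by edgeR and DESeq2, and 0 at both stages by limma-trend.

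Of 23 cell cycle genes known to be repressed through p21 and the DREAM complex, 22 fell in KO at P9 by edgeR. As many fell when scaled to endothelial markers. Among all genes tested, 14.6% were called lower, and 19.2% with that scaling. As first scaled, the median log2 fold change of the 23 was -1.66, beside 0.02 over all genes tested. Ccna2, cyclin A, had 13.4, 13.2 and 8.92 CPM in KO against 62.5, 57.9 and 58.3 CPM in wt (log2 -2.32, edgeR adjusted p = 4.2e-10). At P5, where no test was made, none of the 23 had KO below wt without overlap, and 11 had KO above wt. Among all genes tested, these shares were 7.23% and 7.8%. None passed at E15.5 or in adults by edgeR, DESeq2 or limma-trend. At an unadjusted p under 0.05 there were 6, 4 and 4 at E15.5 and 4, 2 and 6 in adults by these tools in turn. The shares of all genes with such a p were 4.99%, 5.1% and 5.09% at E15.5, and 3.52%, 3.5% and 3.61% in adults. The lean at E15.5 was opposite to that at P9: 22 of the 23 had a positive log2 difference, with a median of 0.24 beside 0.01 over all genes. Libraries were separated with KO above wt for 5 and below for 0, beside 4.99% and 3.36% of all genes. In adults 14 were positive, with a median of 0.11 beside 0.01. In wt cells all 23 were lower in adults than at P9, beside 30.3% of all genes tested. Pericyte markers, lower in KO at P9 as given above, moved with these genes, and their part was not tested.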

How the data were processed

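RNA was measured by strand-specific poly-A sequencing on the Ion Proton, after depletion of CD45-positive and selection of CD31-positive brain cells, per the labels' protocols. The submitters' processing notes list STAR 2.5.3a, SAMtools 1.5, FastQC and Trim Galore 0.4.1 with build mm10, and the counting tool and annotation release are not given in the sources used here. The authors deposited whole read counts per gene on the forward strand, and TPM values, used here only to order levels per gene length. Gene coordinates are those of the deposited tables.

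Counts were tested with edgeR 4.0.16 (quasi-likelihood test, TMM scaling, prior count 2) in R 4.3.3, fitted to the 24 libraries together as 8 groups, which leaves 16 residual degrees of freedom. A gene was kept when some group averaged 10 counts or more, and p-values were adjusted by Benjamini-Hochberg over 17159 genes. CPM uses TMM-scaled totals. The script was tested on simulated data. Alternatives were DESeq2 1.42.0 (size factors or test), limma 3.58.1 (robust trend), no filter or a mean of 50 counts, compared libraries alone, a replicate block, each library left out, and, chosen after seeing the data, scaling to endothelial markers. Replicate p-values measure the spread between these libraries.

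The members and lists were chosen with earlier results of these data known. Named in full were Cdkn1a, Mdm2, Trp53, Eda2r, Phlda3, Gdf15, Bax and Ccng1, the called members ranked first by adjusted p in each contrast (8 at most), the 8 members with the largest differences at P5, and up to 4 genes per pathway list. Promoters were read from RefSeq tables of GRCm38.p6, in which 27 members had an entry. A result of 1 gene of the pathway lists is not reported here.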

Additional observations from a re-analysis of the deposited data

Results flagged for a closer look

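The difference between Sox17iECKO and wt cells differed between E15.5, P9 and adult for 12 of the 36 p53 target genes, by the edgeR test of the interaction with Benjamini-Hochberg adjustment over all genes, in which 14.4% of genes passed. The adjusted p was 3.1e-07 for Trp53inp1, 2.5e-06 for Fas, 1.5e-05 for Polk and 3.0e-05 for Sesn1. Each of these rose at P9, and the log2 difference of KO and wt was larger at P9 than in adults by 2.48, 2.53, 1.20 and 0.86. The adjusted p was 2.0e-04 for Cdkn1a, 0.0027 for Plk3, 0.0075 for Bbc3, 0.027 for Zmat3 and 0.04 for Slc19a2, whose differences were larger at P9 than in adults by 1.72, 0.61, 0.85, 0.72 and 0.90.

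Ces2e (adjusted p = 2.0e-04), Psrc1 (0.0028) and Trp53 (0.046) differed in the other direction, with the P9 difference below the adult one by 2.74, 1.31 and 0.38. These adjusted p-values belong to the interaction test over E15.5, P9 and adult. For P9 against adult alone, the Trp53 difference was not called. Loss of Sox17 and active Cre cannot be told apart here, nor can stage and tamoxifen schedule. P9 and adult shared a dissociation kit, but where E15.5 enters, the kit cannot be told apart from stage either. Trp53 lost its call under DESeq2 size factors (adjusted p = 0.14), the DESeq2 test (0.087) and with no low-count filter (0.2), and Slc19a2 with no filter (0.081). The Ces2e result includes an E15.5 contrast of 8 counts in KO and 1 count in wt. Scaled to endothelial markers, the calls of Plk3, Bbc3, Zmat3 and Slc19a2 were lost, at adjusted p of 0.26, 0.13, 0.35 and 0.27. Phlda3 passed only where P9 KO library 3 was left out (adjusted p = 0.0045), with no filter on low counts (2.7e-04) and under DESeq2 (0.026). Groups of 3 libraries were not tested for outlying libraries.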

How the results depend on the processing

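Eda2r, Gdf15, Prrg4 and Pvt1 stood under 2 CPM on average in most wt groups and rest on few counts there, which limits the precision of their folds. At E15.5, edgeR called 94 genes and 0 members, against 212 and 4 with no filter, 148 and 1 with DESeq2, 16 genes with the compared libraries alone, and 1 member with limma-trend and with endothelial scaling. In adults it called 15 genes and 0 members, against 69 and 1 with no filter, 36 genes with DESeq2, 40 with the compared libraries alone and 7 with endothelial scaling. On the average, endothelial scaling gave 1068 genes and 6 members, against 1613 and 10. The cause of these shifts was not tested.

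At P9 the call of Tigar was lost under DESeq2, DESeq2 size factors and no filter, those of Ephx1 and Pmaip1 under limma-trend, and those of Ercc5, Phlda3, Pmaip1 and Tigar with the compared libraries alone. Calls of Plk2 and Sesn2 were gained under DESeq2, DESeq2 size factors and no filter. That of Mdm2 was gained under DESeq2 and its size factors, and that of Ddb2 under DESeq2. Replicate numbers did not pair the samples at P5, P9 or in adults, where deviations of same-numbered libraries correlated between -0.081 and 0.091. At E15.5 these correlations were 0.065, 0.368 and 0.486, so pairing there is not settled. With a replicate block, members called were 20 at P9, with Pmaip1 (adjusted p = 0.054) and Tigar (0.058) lost and Mdm2 (0.046), Plk2 and Sesn2 gained, and 11 on the average, and genes called were 88 at E15.5, 4945 at P9 and 16 in adults. Trp53 lost its interaction call there (adjusted p = 0.071).

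Signs turned for Gdf15 at E15.5 under limma-trend (0.06). With endothelial scaling they turned for Gdf15 (0.01) and Bax (0.05) at E15.5 and for Bax (-0.11) and Ccng1 (-0.12) at P9. Between wt P9 and wt E15.5 that scaling gave Polk -0.18, Cdkn1a -0.21, Sesn1 -0.89, Trp53 -1.04, Eda2r -1.30, Phlda3 -1.29, Bax -1.06 and Ccng1 -0.75, and between wt adult and wt P9 Cdkn1a 0.11, Bax 0.35 and Ccng1 0.32.

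With each library left out in turn, genes called ran from 55 to 93 at E15.5, 3650 to 5100 at P9 and 4 to 14 in adults, and members called from 0 to 1 at E15.5 and 15 to 20 at P9. At E15.5 the log2 difference ran from -0.02 to 0.16 for Mdm2, -0.02 to 0.08 for Trp53, -0.45 to 0.52 for Gdf15 and -0.11 to 0.10 for Bax. At P9 it ran from -0.03 to 0.20 for Bax and -0.14 to 0.27 for Ccng1. In adults it ran from -0.23 to 0.04 for Cdkn1a, -0.07 to 0.03 for Mdm2, -0.15 to 0.03 for Phlda3, -0.25 to 0.81 for Gdf15 and -0.04 to 0.06 for Ccng1. On the average Bax ran from -0.07 to 0.02. Eda2r ran from -0.10 to 0.53 between wt P9 and wt E15.5, Gdf15 from -0.15 to 0.30 between wt adult and wt P9, and Bax at P5 from 0.40 to 0.73.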
